A study of Mus musculus with 18 samples.

Results

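The 10 genes described here encode enzymes and a transporter of glutathione metabolism and the antioxidant response. They were taken by their symbols, Nqo1, Gclc, Gclm, Slc7a11, Gsr, Gstm1, Gpx1, Gpx4, Txnrd1 and Srxn1, from the 55291 gene symbols of the count tables, and all 10 were found in each of the 18 libraries. The libraries came from the right hippocampus of male C57BL/6J mice. At 6 weeks of age the mice had received an AAV_DJ vector in the right CA3 region. The vector carried EGFP-tagged ribosomal protein Rpl10a under the astrocyte promoter GfaABC1D. Tagged ribosomes were pulled down with an anti-GFP antibody (IP), and a part of the same homogenate was kept as whole hippocampal RNA (input). The AAV control group (AAV) received only the vector and was collected 2 weeks later. The kainic acid group (KA), a model of mesial temporal lobe epilepsy, received kainic acid in the right dentate gyrus 2 weeks after the vector. It was collected 14 days after that injection. Against AAV, KA therefore cannot be told apart from a longer time since the vector, a later age or a further injection surgery. The PBS group received phosphate-buffered saline after the vector. Each group had 3 IP and 3 input libraries, each homogenate pooled 3 to 4 mice, and the promoter, not a genetic cross, set which cells carried the tag.

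Glutathione is a tripeptide made in 2 steps from glutamate, cysteine and glycine. Cystine enters the cell through the exchanger Slc7a11, glutamate-cysteine ligase (Gclc with its modifier Gclm) carries out the rate-limiting step, and the oxidized form is reduced again by Gsr with NADPH. Glutathione peroxidases use it to remove hydrogen peroxide and lipid peroxides, glutathione S-transferases couple it to electrophiles, and many of these genes are targets of the transcription factor NRF2, which binds the antioxidant response element. Astrocytes are known for a high glutathione content and for supplying its precursors to neurons.

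Total counts ran from 7991681 to 16032180 per library with a median of 10313100. The summed FPKM (fragments counted per kilobase of gene length, scaled to the library total) of 10 astrocyte markers was 6517 to 12100 over the IP libraries and 550 to 1453 over the input libraries, with no marker at 0, and all 10 were higher in the IP than in the input of AAV, PBS and KA, at a median log2 fold change of 3.28, 3.01 and 1.995. AAV and KA libraries 1 and 2 were sequenced in run 1, libraries 3 in run 2 and all PBS libraries in run 3, so that run and group cannot be told apart for PBS. Of the 10 astrocyte markers, 2 were higher and 4 lower in KA IP than in AAV IP. Their median log2 fold change was -0.73, beside -0.02 for all genes. Against PBS IP, 2 were higher and 4 lower, at a median of -0.32. Markers of other cell types moved with KA in the IP too. The 10 oligodendrocyte markers summed to 1450 to 2833 in KA, 277 to 1194 in AAV and 302 to 639 in PBS, and the 10 neuron markers to 327 to 397 in KA, 155 to 193 in AAV and 154 to 263 in PBS. The oligodendrocyte markers summed to 821 to 1057 in KA input, so that all 10 were higher in the IP than in the input of KA at a median log2 fold change of 1.49, where that median was -0.28 in AAV and -0.60 in PBS. The pulled-down RNA of KA thus held markers of oligodendrocytes beside those of astrocytes. The 10 microglia and macrophage markers summed to 38.4 to 66.1 in KA IP, 14.4 to 23.4 in AAV IP and 17.2 to 28 in PBS IP. The 10 endothelial markers went the other way, at 5.23 to 6.67 in KA IP, 12.2 to 17.9 in AAV IP and 7.19 to 21.8 in PBS IP. No oligodendrocyte, neuron or microglia marker was at 0 in any IP library. The part of these marker shifts, those of astrocytes included, in the differences below was not tested. In bulk RNA, fewer cells of a type and less RNA per cell cannot be told apart.

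The promoters of 8 of the 10 genes were matched in RefSeq (build GRCm38.p6, which has the coordinates of mm10), with Gclc and Gsr not matched and 14 windows in all from 250 bases before to 50 bases after a start. They were searched on both strands for the core of the antioxidant response element, TGACNNNGC, and for the AP-1 type element TGAGTCA, which can overlap the first because its reverse complement starts with the same 4 letters. The core was found in 3 of the 8 genes, Gclm, Txnrd1 and Srxn1, against 14% of 27025 genes with a promoter window in the table, and the AP-1 type letters in 1 of 8, Srxn1, against 5.95% of genes. By windows, the core was in 3 of 14 against 12.4% of 32851. A stretch is shown for each of these genes with a match of either motif wholly before the start, whatever its KA result. Capitals mark the motif letters, and each stretch lies before the start and outside annotated exons of its gene.
Gclm, chr3:122245403-122245451, + strand: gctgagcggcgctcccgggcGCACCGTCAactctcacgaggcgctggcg
Txnrd1, chr10:82859094-82859142, + strand: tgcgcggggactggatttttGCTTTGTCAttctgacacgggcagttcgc
Srxn1, chr2:152105402-152105505, + strand: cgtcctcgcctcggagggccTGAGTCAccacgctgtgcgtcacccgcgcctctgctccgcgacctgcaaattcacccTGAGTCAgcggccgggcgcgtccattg
The Txnrd1 stretch belongs to 1 of its 3 windows. In Gclm and Txnrd1 the capitals are the core read on the opposite strand. The Srxn1 stretch holds the AP-1 type letters at 2 places, and the core match of Srxn1 lay 28 bases after the start and is not printed. A match is a description of letters and was not tested for binding.

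The 10 genes differed widely in level. FPKM is scaled by gene length, so levels can be compared between genes. Gstm1 was the highest in the IP at 1682 to 6016 FPKM, followed by Gpx4 at 420 to 677 and Gpx1 at 52.5 to 520. The other 7 genes stayed below 25 FPKM in every library. Slc7a11 reached 1.21 to 6.16 in the IP, on 184 to 820 counts, and Nqo1 in the input had the fewest counts, 19 to 57. The plot of FPKM by library shows all 180 values.

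**Figure D1:**
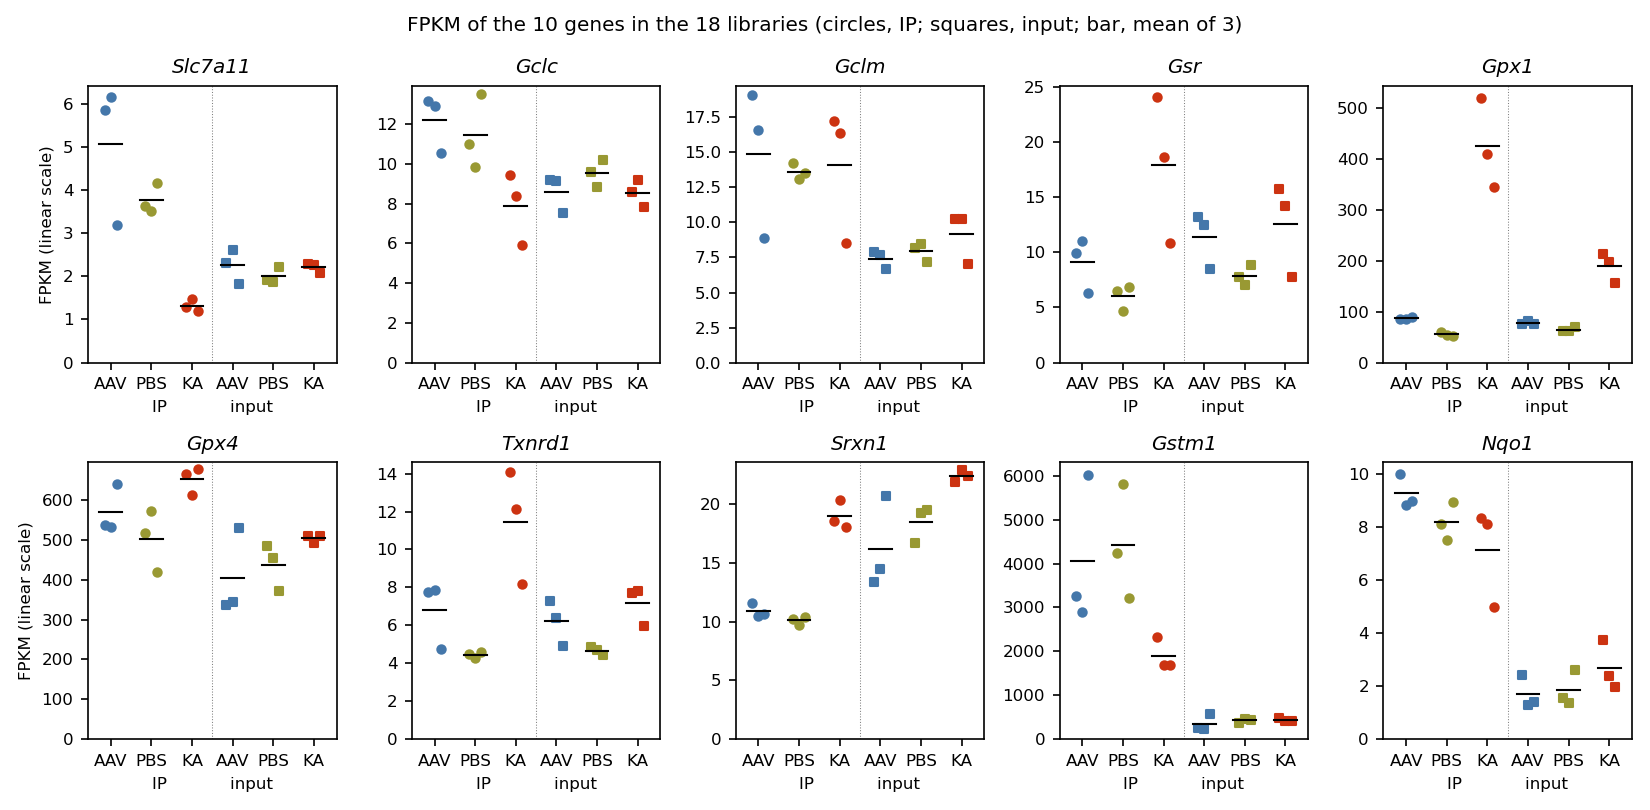
FPKM (linear axis from 0) of each gene in the 3 libraries of AAV, PBS and KA, IP at left (circles) and input at right (squares), libraries 1 to 3 from left to right within a group, with a bar at the mean. Slc7a11 was lowest in the KA IP libraries at 1.21 to 1.46 FPKM while its input stayed at 1.83 to 2.61, and Gpx1 was highest in the KA IP libraries at 344 to 520.

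KA was first compared with AAV in the IP, which asks how the pulled-down RNA differed in the epileptic hippocampus. Gpx1, Gsr, Srxn1 and Txnrd1 rose, Slc7a11 and Gclc fell, and Nqo1, Gclm, Gstm1 and Gpx4 did not pass the test. The members therefore moved in both directions, with 4 higher and 2 lower of 10, where 20.1% of the 9729 genes tested passed (10.4% higher and 9.74% lower). FPKM values of the groups did not overlap for 7 of the 10 genes, against 37% of the genes tested.

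Slc7a11, the cystine/glutamate exchanger that feeds cysteine into glutathione, had 5.84, 6.16 and 3.18 FPKM in AAV IP, 3.62, 3.52 and 4.16 in PBS IP, and 1.28, 1.46 and 1.21 in KA IP. Every KA library was below every library of both other groups. The difference from AAV was a log2 fold change of -1.87 ± 0.23 (SE, n = 3 against 3, adjusted p = 0.00196), a 3.65-fold lower level. AAV library 3 was the lowest of its group, and within run 1 the log2 fold change was -2.08. In run 2, with 1 library a side, the ratio of FPKM of KA to AAV was 0.379.

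Gclc, the catalytic subunit of glutamate-cysteine ligase, had 13.1, 12.9 and 10.5 FPKM in AAV IP and 9.42, 8.36 and 5.91 in KA IP. The groups did not overlap, and the log2 fold change was -0.58 ± 0.17 (adjusted p = 0.048). Its partner Gclm, the modifier subunit, had 19.1, 16.6 and 8.87 FPKM in AAV IP and 17.3, 16.4 and 8.54 in KA IP, with a log2 fold change of -0.02 ± 0.30 (adjusted p = 0.968). Library 3 was the lowest in both groups for Gclm, and the groups overlapped.

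Gsr, glutathione reductase, had 9.99, 11 and 6.35 FPKM in AAV IP and 24.1, 18.7 and 10.9 in KA IP. The lowest KA value lay just below the highest AAV value, library 3 was the lowest of both groups, and the log2 fold change was 1.02 ± 0.27 (adjusted p = 0.0337). Within run 1 the log2 fold change was 1.08, and in run 2 the ratio of FPKM was 1.72.

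Gpx1, the cytosolic glutathione peroxidase, showed the largest difference of the 10. Its FPKM was 86.5, 84.6 and 90.0 in AAV IP, 59.7, 54.1 and 52.5 in PBS IP, and 520, 410 and 344 in KA IP. The lowest KA library was thus well above the highest control library. The difference from AAV was 2.33 ± 0.20 on the log2 scale (adjusted p = 0.000502), a 5.01-fold higher level, and Gpx1 ranked 63 by p among the genes tested. Gpx4, which reduces lipid peroxides in membranes, had 538, 533 and 641 FPKM in AAV IP and 666, 613 and 677 in KA IP, with a log2 fold change of 0.24 ± 0.22 (adjusted p = 0.489).

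Txnrd1 and Srxn1 belong to the thioredoxin and peroxiredoxin branch, which reduces peroxides beside the glutathione system. Txnrd1, the cytosolic thioredoxin reductase, had 7.78, 7.84 and 4.77 FPKM in AAV IP and 14.1, 12.1 and 8.18 in KA IP (log2 fold change 0.81 ± 0.22, adjusted p = 0.0358). Srxn1, sulfiredoxin, which repairs over-oxidized peroxiredoxins, had 11.6, 10.5 and 10.7 FPKM in AAV IP and 18.6, 20.4 and 18.1 in KA IP (log2 fold change 0.85 ± 0.15, adjusted p = 0.0079). The groups did not overlap for either gene, and the 3 KA values of Srxn1 lay close together.

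The 2 detoxifying enzymes did not pass this test. Gstm1, a mu class glutathione S-transferase and the most abundant of the 10, had 3251, 2895 and 6016 FPKM in AAV IP and 2325, 1682 and 1691 in KA IP. AAV library 3 stood far above the other AAV libraries, no KA library reached the AAV values, and the log2 fold change was -1.08 ± 0.38 (adjusted p = 0.0812). Nqo1, an NADPH-using quinone reductase, had 10, 8.82 and 9 FPKM in AAV IP and 8.33, 8.10 and 4.99 in KA IP, lower in all 3 KA libraries (log2 fold change -0.34 ± 0.20, adjusted p = 0.284).

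These calls rested unequally on single libraries. Gstm1 also passed as lower with the replicate number as a block (adjusted p = 0.0419), by DESeq2 (0.0127), without the filter on low values (0.0388), with the run as a covariate (0.0191), with all 18 libraries in 1 fit (0.0464) and within run 1 (0.0148), but not by voom, with RLE scaling or with any single library left out. Within run 1 its log2 fold change was -0.57, against an FPKM ratio of 0.281 in run 2. Gpx4 passed within run 1 as higher (0.31, adjusted p = 0.034). Leaving out KA library 1, KA library 2, AAV library 1 or AAV library 2 left 3 genes past the threshold, Gpx1, Slc7a11 and Srxn1, since Gsr (adjusted p = 0.0661 to 0.119), Txnrd1 (0.0716 to 0.132) and Gclc (0.0787 to 0.144) no longer passed. The number of all genes passing dropped as well in these 4 fits, to 840 to 1027 of 9729. Gclc also failed without KA library 3 (adjusted p = 0.116) and without the filter on low values (adjusted p = 0.184).

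KA was next compared with PBS in the IP, which shares the KA libraries with the comparison above. Gpx1, Gsr, Txnrd1 and Srxn1 rose and Slc7a11, Gstm1 and Gclc fell, 7 of 10 where 37% of the 9847 genes tested passed (18.2% higher and 18.9% lower). FPKM values did not overlap for 8 of the 10 genes, against 46% of the genes tested. The log2 fold changes were 2.92 ± 0.23 for Gpx1 (adjusted p = 2.15e-05), 1.56 ± 0.24 for Gsr (adjusted p = 0.000962), 1.35 ± 0.19 for Txnrd1 (adjusted p = 0.000573) and 0.91 ± 0.16 for Srxn1 (adjusted p = 0.00195). On the lower side they were -1.51 ± 0.17 for Slc7a11 (adjusted p = 0.000138), -1.26 ± 0.41 for Gstm1 (adjusted p = 0.0355) and -0.54 ± 0.18 for Gclc (adjusted p = 0.0365). The 6 genes called against AAV were also called here in the same direction. In PBS IP, Gsr had 6.53, 4.70 and 6.88 FPKM and Txnrd1 4.50, 4.27 and 4.58, both below all 3 KA libraries.

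The values of Gstm1 in PBS IP were 4246, 5806 and 3220 FPKM, above all KA libraries but spread widely, and its call was lost without any one of KA libraries 1, 2 and 3 or PBS libraries 1 and 2 (adjusted p = 0.0827 to 0.167). Gclc, at 11, 9.86 and 13.5 FPKM in PBS IP, lost its call without any single library (adjusted p = 0.0524 to 0.102). Nqo1, Gclm and Gpx4 did not pass against PBS, with log2 fold changes of -0.21 ± 0.21, 0.02 ± 0.22 and 0.36 ± 0.28. Without the filter on low values, the log2 fold changes of the filtered genes shifted up by a median of 0.20 and neither Gclc (adjusted p = 0.354) nor Gstm1 (adjusted p = 0.0831) passed.

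**Figure D2:**
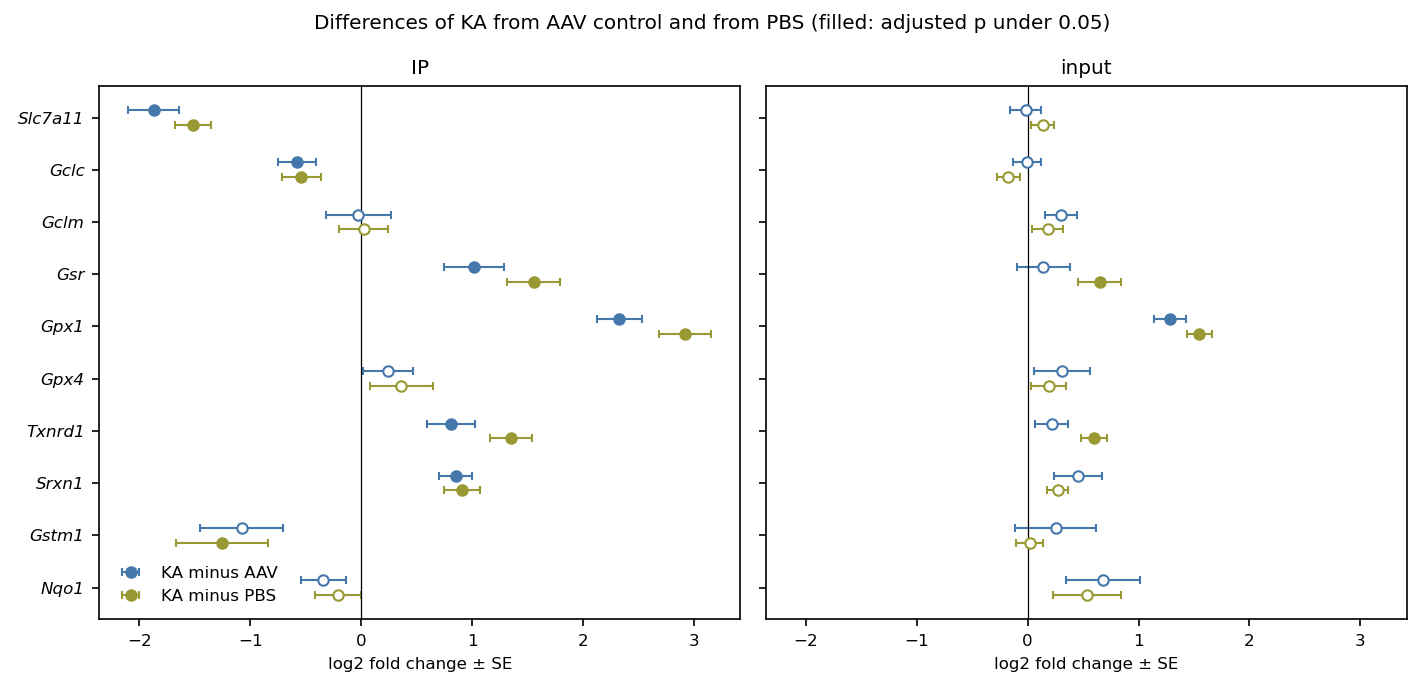
Log2 fold change with its SE for KA minus AAV (blue) and KA minus PBS (olive) in the IP (left) and the input (right), 3 libraries against 3, with filled points for an adjusted p under 0.05. In the IP, Slc7a11 lay at -1.87 and -1.51 and Gpx1 at 2.33 and 2.92, while in the input Slc7a11 lay at -0.02 and 0.14 and Gpx1 at 1.28 and 1.55.

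Between PBS and AAV in the IP, none of the 10 genes passed, and 0% of the 10667 genes tested did by the edgeR quasi-likelihood test (1153 at an unadjusted p under 0.05, and 16 by DESeq2 after adjustment). The largest log2 fold changes were -0.61 ± 0.20 for Gpx1 (adjusted p = 0.436), -0.55 ± 0.22 for Txnrd1 (adjusted p = 0.44) and -0.55 ± 0.23 for Gsr (adjusted p = 0.449). All 3 PBS values were below all AAV values for Gpx1, Txnrd1 and Srxn1, 3 of 10 genes, where the groups did not overlap for 13.4% of the genes tested. Without AAV library 3, the library of run 2, Slc7a11 (-0.58), Gsr (-0.72) and Txnrd1 (-0.72) passed as lower in PBS, with adjusted p of 0.0481, 0.0435 and 0.032, where 1121 of the 10667 genes passed.

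In whole hippocampal RNA, Gpx1 was the only member that rose in KA against AAV, 1 of 10 where 4.49% of the 10809 genes tested passed (3.54% higher). Its FPKM was 75.2, 81.6 and 75.6 in AAV input, 61.3, 61.1 and 69.2 in PBS input, and 214, 197 and 156 in KA input. The KA libraries stood above all control libraries, and the log2 fold change was 1.28 ± 0.14 (adjusted p = 0.00317), a 2.43-fold higher level. The summed FPKM of the microglia and macrophage markers also moved in the input, from 130 to 299 in AAV and 177 to 204 in PBS to 1693 to 2632 in KA, and all 9 of the 10 markers that were tested rose. The 10 astrocyte markers summed to 1417 to 1453 in KA input, 550 to 921 in AAV input and 800 to 949 in PBS input. The part of these shifts in the Gpx1 difference was not tested.

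Slc7a11 had 2.31, 2.61 and 1.83 FPKM in AAV input and 2.28, 2.26 and 2.08 in KA input. The values overlapped and the log2 fold change was -0.02 ± 0.14 (adjusted p = 0.966), although the same homogenates gave the 3.65-fold difference in the IP. Gstm1, at 256, 237 and 569 FPKM in AAV input and 470, 417 and 408 in KA input, had a log2 fold change of 0.25 ± 0.37 (adjusted p = 0.787), with AAV library 3 again the highest. Gclc had a log2 fold change of -0.0042 ± 0.12.

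AAV input library 3 bore on several of these values. Without it, Srxn1 (0.74, adjusted p = 0.00356), Gstm1 (0.87, adjusted p = 0.00207) and Gpx4 (0.63, adjusted p = 0.0108) passed beside Gpx1 as higher in KA, where 2620 of the 10809 genes tested passed. Within run 1, Gclm passed as well (0.40, adjusted p = 0.000755) and 4696 genes did, whereas in run 2 the ratio of FPKM of KA to AAV was 1.08 for Srxn1, 0.717 for Gstm1, 0.962 for Gpx4 and 1.05 for Gclm. Srxn1 had 13.4, 14.4 and 20.7 FPKM in AAV input and 21.9, 22.9 and 22.4 in KA input, so that library 3 of AAV was the one nearest to KA. With the sequencing run as a covariate Srxn1 passed (0.49, adjusted p = 0.0335). The 7 choroid plexus and ependyma markers summed to 2991 and 2123 FPKM in AAV input libraries 1 and 2, and to 35.4 in library 3. They summed to 2505 to 4499 in KA input and 34.7 to 301 in PBS input. Their part in the input values and in the IP to input ratios was not tested.

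Against PBS in the input, 3 of the 10 genes rose in KA and none fell, where 27.7% of the 10849 genes tested passed (15.5% higher). They were Gpx1 (1.55 ± 0.11, adjusted p = 4.28e-06), Txnrd1 (0.60 ± 0.12, adjusted p = 0.00478) and Gsr (0.65 ± 0.20, adjusted p = 0.0309). Gsr had 7.81, 7.02 and 8.82 FPKM in PBS input and 15.7, 14.3 and 7.76 in KA input, where library 3 fell within the PBS values. Its call was lost without KA library 1 or 2 or any PBS library (adjusted p = 0.0652 to 0.131). Txnrd1 had 4.87, 4.70 and 4.43 FPKM in PBS input and 7.68, 7.84 and 5.97 in KA input, with no overlap. Gclm had a log2 fold change of 0.18 ± 0.14 and passed without KA library 3 (0.30, adjusted p = 0.0367).

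None of the 10 genes passed between PBS and AAV in the input. By the edgeR quasi-likelihood test, 0% of the 10924 genes tested passed (901 at an unadjusted p under 0.05, and 30 by DESeq2 after adjustment). Without AAV input library 3, 5 of the 10 passed, with Gstm1 (0.85), Srxn1 (0.48) and Gpx4 (0.45) higher and Gsr (-0.63) and Txnrd1 (-0.47) lower in PBS, and so did 4040 of all genes.

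The IP to input ratio asks how far each RNA was concentrated on the tagged ribosomes. The vector was placed in CA3, while the input was RNA of the whole hippocampus. In this ratio, astrocytes and the labelled region cannot be told apart. In AAV, 5 of the 10 genes were higher in the IP than in the input, where 39.7% of the 9961 genes tested passed (19.4% higher). These were Gstm1 (3.67 ± 0.56, adjusted p = 0.00169), Nqo1 (2.63 ± 0.27, adjusted p = 0.000309), Slc7a11 (1.31 ± 0.24, adjusted p = 0.00387), Gclm (1.13 ± 0.24, adjusted p = 0.00827) and Gclc (0.65 ± 0.14, adjusted p = 0.00885). Gclc was 1.57-fold higher in the IP, and Gpx4, which did not pass (adjusted p = 0.117), was 1.56-fold higher. With the homogenate as a block, Gpx4 (0.68, adjusted p = 0.0022) and Gpx1 (0.32, adjusted p = 0.0263) were also higher and Srxn1 (-0.40, adjusted p = 0.0494) lower in the IP, which made 8 of 10, where 6102 of the 9961 genes passed. Gpx4 also passed without AAV input library 3 (0.96, adjusted p = 0.0147).

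In PBS, the same 5 genes were higher in the IP and Srxn1 was lower, 6 of 10 where 56.3% of the 10401 genes tested passed (28.6% higher and 27.7% lower). The log2 fold changes were 3.57 ± 0.42 for Gstm1, 2.30 ± 0.24 for Nqo1, 1.05 ± 0.14 for Slc7a11, 0.91 ± 0.17 for Gclm, 0.38 ± 0.14 for Gclc and -0.73 ± 0.14 for Srxn1 (adjusted p = 2.15e-05, 8.05e-06, 5.37e-05, 0.000691, 0.0307 and 0.00108). The Gclc call was lost without PBS input library 1, 2 or 3 (adjusted p = 0.0519 to 0.16), and Gpx4 passed without PBS IP library 3 (0.56, adjusted p = 0.0449).

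In KA the order changed. Gstm1 (2.35 ± 0.20, adjusted p = 0.000106), Nqo1 (1.62 ± 0.26, adjusted p = 0.00196), Gpx1 (1.38 ± 0.16, adjusted p = 0.000495), Txnrd1 (0.89 ± 0.16, adjusted p = 0.00375), Gclm (0.82 ± 0.22, adjusted p = 0.021) and Gpx4 (0.59 ± 0.17, adjusted p = 0.0272) were higher in the IP. Slc7a11 was lower in the IP (-0.53 ± 0.12, adjusted p = 0.00964). These made 7 of 10, where 34.4% of the 10098 genes tested passed (19.1% higher and 15.3% lower). Gsr had 0.72 ± 0.28 (adjusted p = 0.0764) and passed with the homogenate as a block (adjusted p = 0.000244) or without KA IP library 3 (adjusted p = 0.0118). Gclm lost its call without any library but KA IP 3 (adjusted p = 0.0582 to 0.0749), Gpx4 without KA IP 1, KA input 1 or KA input 2 (0.0635 to 0.126), and Slc7a11 without the filter on low values (-0.44, adjusted p = 0.0707).

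The ratios in single homogenates show the same order. The Slc7a11 ratio of FPKM in the IP to FPKM in the input was 2.53, 2.36 and 1.74 in AAV, 1.90, 1.89 and 1.87 in PBS, and 0.560, 0.646 and 0.580 in KA. It was above 1 in all 6 control homogenates and below 1 in all 3 KA homogenates. Gsr went the other way, with 0.755, 0.883 and 0.748 in AAV, 0.836, 0.670 and 0.781 in PBS, and 1.53, 1.31 and 1.40 in KA. Gpx1 had 1.15, 1.04 and 1.19 in AAV, 0.974, 0.885 and 0.759 in PBS, and 2.43, 2.08 and 2.21 in KA. For Gsr and Gpx1, all KA ratios were above all control ratios.

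Gstm1 stayed concentrated in the IP in all 9 homogenates, but its ratio was 12.7, 12.2 and 10.6 in AAV, 11.5, 12.6 and 7.29 in PBS, and 4.94, 4.03 and 4.14 in KA, with no overlap. The ratios of astrocyte markers were also lower in KA, with a mean of 9.81 for Gfap against 19.96 in AAV, 3.34 against 14.4 for Aldoc and 2.19 against 8.51 for Slc1a2, and their part in the Gstm1 ratio was not tested. Nqo1, Gclm and Gpx4 also had ratios above 1 in all 9 homogenates. The Gclc ratio was 1.40 to 1.43 in AAV, 1.12 to 1.33 in PBS and 0.754 to 1.10 in KA, and that of Srxn1 stayed below 1 throughout, from 0.504 to 0.891.

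**Figure D3:**
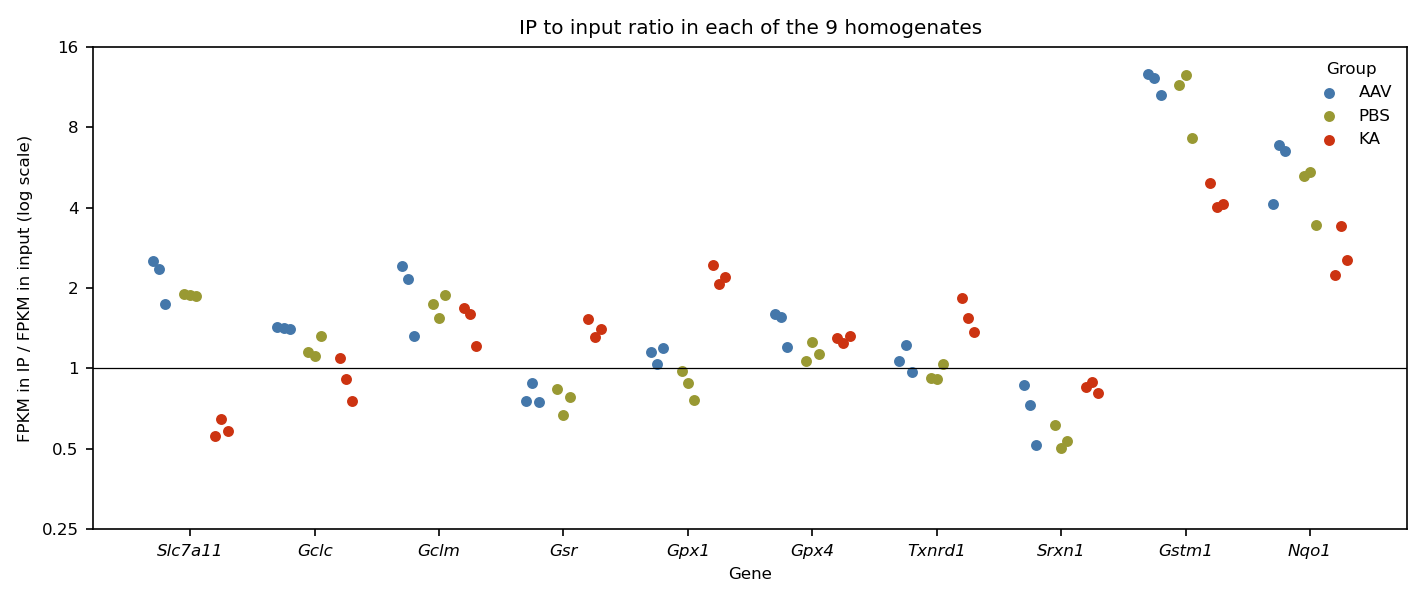
FPKM in the IP divided by FPKM in the input of the same homogenate (log axis) for each gene, with 1 point for each of the 3 homogenates of AAV, PBS and KA and a line at 1. Slc7a11 lay at 1.74 to 2.53 in the control homogenates and at 0.560 to 0.646 in KA, and Gpx1 at 0.759 to 1.19 in the control homogenates and 2.08 to 2.43 in KA.

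Whether the KA difference in the IP was itself different from that in the input was tested as an interaction. Against AAV, 2 of the 10 genes passed, 1 in each direction, where 13.2% of the 9180 genes tested passed (7.19% higher and 5.99% lower). Slc7a11 fell further in the IP than in the input by 1.83 ± 0.27 on the log2 scale (adjusted p = 0.00106), and Gpx1 rose further in the IP by 1.06 ± 0.22 (adjusted p = 0.00882). With each homogenate as a block, 7 of 10 passed, where 3286 of the 9180 genes did, with Gsr (0.90, adjusted p = 0.000488) and Txnrd1 (0.61, adjusted p = 0.00609) higher and Gstm1 (-1.37, adjusted p = 0.000509), Nqo1 (-1.01, adjusted p = 0.0188) and Gclc (-0.57, adjusted p = 0.0135) lower beside these. In the same test without the block, 7 of the 10 astrocyte markers were lower and none higher, at a median of -1.34, beside -1.32 for Gstm1 and -1.01 for Nqo1, which did not pass. Of the 10 oligodendrocyte markers 3 were higher and none lower, at a median of 1.80, and the part of these shifts in the members' differences was not tested. Gpx1 lost its call when KA homogenate 2, AAV homogenate 1 or AAV homogenate 2 was left out (adjusted p = 0.0506 to 0.0658), and Gstm1 passed without AAV homogenate 3 (-1.41, adjusted p = 0.00225).

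Against PBS, which shares the KA libraries, 5 of the 10 genes passed where 25.5% of the 9305 genes tested did (10.8% higher and 14.7% lower). The KA difference was larger in the IP by 1.37 ± 0.23 for Gpx1 (adjusted p = 0.00136), 0.75 ± 0.23 for Txnrd1 (adjusted p = 0.0289) and 0.63 ± 0.17 for Srxn1 (adjusted p = 0.0151). It was lower in the IP for Slc7a11, at -1.66 ± 0.17 (adjusted p = 5.85e-05), and for Gstm1, at -1.29 ± 0.40 (adjusted p = 0.0316). Here too 7 of the 10 astrocyte markers were lower, at a median of -1.29, and all 10 oligodendrocyte markers were higher, at a median of 1.98. With the homogenate as a block Gsr passed too (0.90, adjusted p = 0.0011). Gstm1 lost its call without any homogenate but PBS 3 (adjusted p = 0.0732 to 0.125), Txnrd1 without KA 1, KA 2 or PBS 1 (0.0813 to 0.109), and Srxn1 without KA 1 or KA 2 (0.0571 and 0.0804). Between PBS and AAV, none of the 10 IP to input differences passed, and 0% of the 9597 genes tested did by the edgeR quasi-likelihood test (399 at an unadjusted p under 0.05, and 6 by DESeq2 after adjustment).

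The wider pathway was read from 9 lists with 131 other genes, of which 99 passed the filter in KA against AAV in the IP. Of these 10 rose and 18 fell, where 10.4% of all genes rose and 9.74% fell. The surplus of lower over higher calls did not hold without the filter on low values, where 20 rose and 16 fell of 128 tested. Among the same 99 genes it was 15 and 15, and of all 31675 genes 3933 passed, 2157 of them higher. It did not hold against PBS either, where 27 rose and 19 fell of 101, beside 18.2% and 18.9% of all genes. When 1 library was left out, 5 to 18 rose and 4 to 23 fell, and 8 of the 28 genes passed in all 6 of these fits. They were Gsto1, Gpx3, Msrb1, Hmox1 and Acsl4 on the higher side and Gstm5, Cbs and Selenop on the lower side. The glutathione S-transferases split, with 2 of 14 tested higher and 3 lower at a median log2 fold change of -0.07, beside -0.02 for all genes. Gsto1, an omega class transferase, rose from 14, 14.1 and 13.3 to 63, 64.2 and 48.9 FPKM (2.14 ± 0.15, adjusted p = 0.000305). Gstm5, a mu class relative of Gstm1, fell from 3029, 2572 and 3031 to 322, 365 and 409 FPKM (-2.92 ± 0.27, adjusted p = 0.000543). Its IP levels in AAV were of the order of those of Gstm1, and it fell further than any member. Gstm6 (0.80) rose, and Gstk1 (-0.78) and Gsta4 (-0.88) fell.

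In glutathione synthesis, transport and turnover, 1 of 11 tested rose and 3 fell, at a median of -0.03. Cbs, cystathionine beta-synthase, and Cth, cystathionine gamma-lyase, make cysteine from homocysteine by transsulfuration. Cbs fell from 12.9, 10.8 and 14.5 to 4.33, 3.54 and 3.49 FPKM (-1.71 ± 0.20, adjusted p = 0.00163), and Cth by 0.88 ± 0.20 on the log2 scale (adjusted p = 0.0185). Both genes of the transsulfuration route in the list were thus lower in KA IP together with Slc7a11. In the gamma-glutamyl cycle, Oplah, 5-oxoprolinase, fell (-0.95) and Ggct, gamma-glutamylcyclotransferase, rose (1.003).

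Among the other peroxidases, superoxide dismutases and catalase, 1 of 8 tested rose and none fell, at a median of -0.19. It was Gpx3, the secreted glutathione peroxidase, which had 2.56, 3.17 and 1.89 FPKM in AAV IP and 20.2, 12.4 and 8 in KA IP (2.46 ± 0.33, adjusted p = 0.00265). Of the thioredoxins, peroxiredoxins and sulfur reductases, 1 of 19 tested rose and 2 fell, at a median of 0.12. Msrb1, a methionine sulfoxide reductase, rose (1.41 ± 0.22, adjusted p = 0.00523), and the peroxiredoxin Prdx4 (-0.82) and the sestrin Sesn1 (-0.77) fell.

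In the list of selenoprotein synthesis and other selenoproteins, none of 15 tested rose and 2 fell, at a median of -0.06. Selenop, which carries selenium between cells, had 110, 96.5 and 95.5 FPKM in AAV IP and 45.5, 45.1 and 28 in KA IP (-1.31 ± 0.20, adjusted p = 0.00415). Pstk, a kinase of selenocysteine tRNA synthesis, fell less (-0.54). Gpx1, Gpx3, Txnrd1 and Msrb1, which rose, are themselves selenoproteins, but were counted among the members or in other lists. Gpx4, a selenoprotein too, did not pass (0.24, adjusted p = 0.489). In NADPH supply, 1 of 8 tested rose and 3 fell, at a median of -0.50, with Taldo1 of the pentose phosphate pathway higher (0.86) and Tkt (-0.71), Idh1 (-0.66) and Nadk (-0.64) lower. Without the filter on low values none of the 3 lower genes passed (adjusted p = 0.0751, 0.104 and 0.121), nor did Nqo2 of the NRF2 targets (0.12) and Pstk (0.247).

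Of the regulators of NRF2, 1 of 7 tested rose and none fell, at a median of 0.32, and without the filter 4 of 10 rose. It was Cul3 (0.89 ± 0.20, adjusted p = 0.02), the scaffold of the ubiquitin ligase that works with Keap1. Of the other NRF2 targets, 2 of 11 tested rose and 2 fell, at a median of 0.20, and without the filter 5 of 16 rose and 1 fell. Hmox1, heme oxygenase, had 5.60, 5.02 and 6.64 FPKM in AAV IP and 20.1, 16.9 and 12.3 in KA IP (1.54 ± 0.23, adjusted p = 0.0038), and Akr1b3, aldose reductase, rose as well (0.95). The carbonyl reductase Cbr3 (-1.16) and the quinone reductase Nqo2 (-0.69) fell. In lipid peroxidation and ferroptosis, 1 of 6 tested rose and 3 fell, at a median of -0.68. Acsl4, which loads polyunsaturated fatty acids into phospholipids, rose from 2.15, 2.67 and 1.21 to 7.18, 7 and 4.68 FPKM (1.71 ± 0.26, adjusted p = 0.00472), while the transferrin receptor Tfrc (-1.07), the ubiquinone reductase Aifm2 (-0.90) and the sterol enzyme Fdft1 (-1.05) fell.

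**Figure D4:**
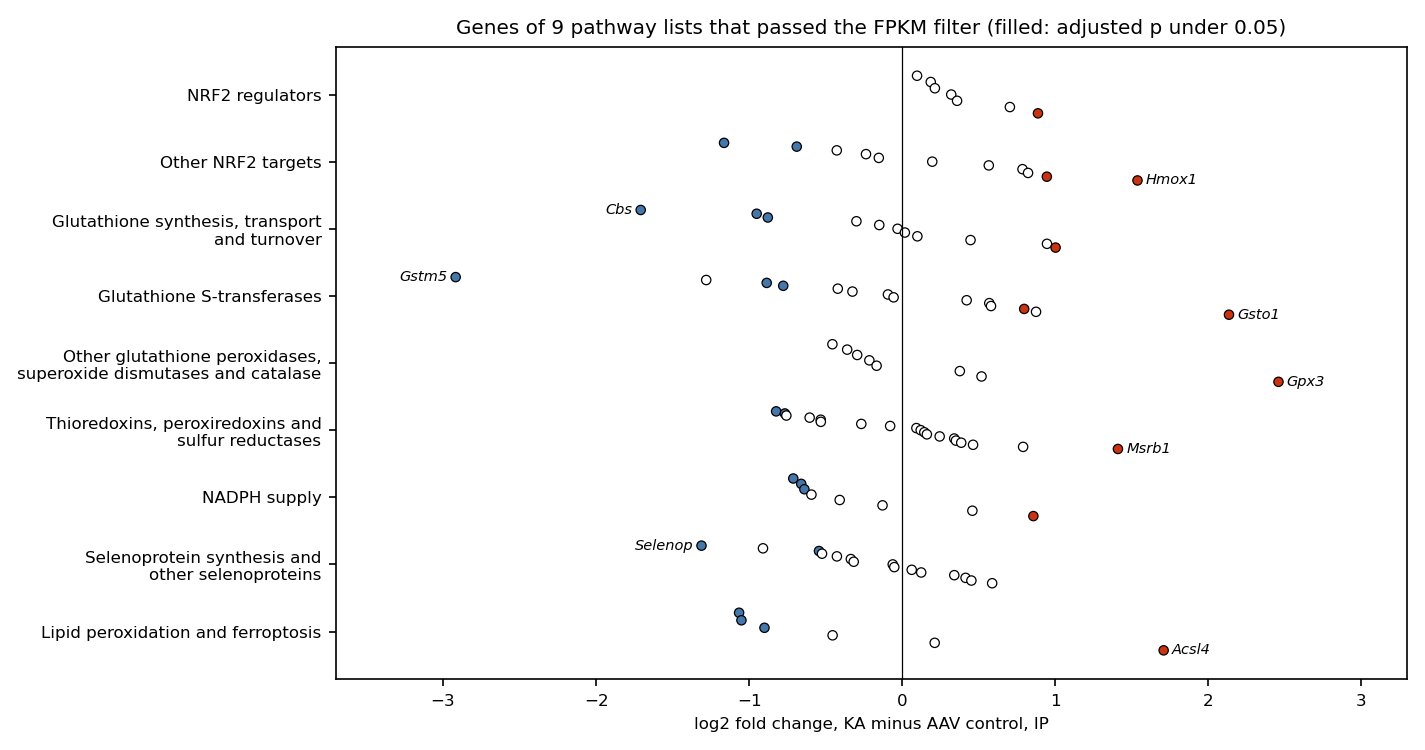
Log2 fold change of KA minus AAV in the IP for the 99 tested genes of 9 lists, 1 row of points a list, filled red for higher and blue for lower at an adjusted p under 0.05 and open otherwise. Of these, 10 rose and 18 fell, with Gpx3 at 2.46 and Gsto1 at 2.14 at one end and Gstm5 at -2.92 at the other.

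In the input, 9 of 98 genes of the same lists rose against AAV and none fell, where 3.54% of all genes rose and 0.944% fell. Among the genes named above, Gpx3 (1.30, adjusted p = 0.0153), Hmox1 (1.55, adjusted p = 0.0342) and Cul3 (0.65, adjusted p = 0.0365) passed there as higher in KA, and Gstm5 (-0.41, adjusted p = 0.493) and Cbs (-0.08, adjusted p = 0.928) did not pass. Cth and Aifm2 were not tested in the input because of the filter. The count of 9 higher list genes turned with single libraries. Without KA input library 1 or 2 it was 2, and without AAV input library 1 or 2 it was 3. In these fits 136 to 207 of 10809 genes passed. Without AAV input library 3, 40 list genes rose and 3 fell, where 2620 of 10809 genes passed.

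The 5 genes whose log2 CPM (counts scaled to the library total) was most like that of Gpx1 over the 18 libraries, among 9001 genes, were Sec11c (Pearson r = 0.978), Nupr1 (0.972), Tnfrsf12a (0.968), Clba1 (0.966) and 9530068E07Rik (0.965). The points share homogenates, groups and runs, and the coefficients are given as a description.

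By the GENCODE vM21 annotation of GRCm38, all 10 genes are protein coding. Slc7a11 spans chr3:49892526-50443614 on the minus strand with 13 exon blocks, and Gpx1 spans chr9:108338903-108340343 on the plus strand. Counting could be uncertain for 2 members. Of the 75-base stretches of the Gpx4 transcripts, 29.8% also occur in transcripts of other genes, among them the pseudogene Gpx4-ps2, and for Gstm1 the share was 11.7%, among them Gstm3. The share was 3.5% for Gclm and 0.611% for Slc7a11, and 0 for the other 6. Exons of Gclm share 296 bases with Gm17494 on the opposite strand and 244 with Gm6061 on the same strand, and whether the counting used strand is not given in the sources used here.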

How the data were processed

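RNA of 9 homogenates was sequenced as IP and input. The authors named STAR, the mm10 build, featureCounts and edgeR, with no versions, and deposited per library a raw count for each gene symbol and an FPKM value, which the counts, the library total and a fixed gene length give. Whether strand or multiply mapping reads were used is not given in the sources used here.

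Counts were tested with the edgeR 4.0.16 quasi-likelihood test in R 4.3.3 (TMM, Benjamini-Hochberg over those genes whose FPKM exceeded 1 throughout the libraries compared, called at an adjusted p under 0.05), in 12 comparisons that share libraries. FPKM values in the text are not TMM-scaled. Alternatives were limma 3.58.1 voom, DESeq2 1.42.0, RLE scaling, no filter, a replicate block, the run, all 18 libraries in 1 fit and each library left out. The scripts were tested on simulated data with 66 or 67 genes changed at each size. For KA against AAV in the IP, 2.99% of 1.5-fold, 32.8% of 2-fold and 97.0% of 4-fold changes were recovered. For the IP minus input difference it was 2.99%, 8.96% and 74.2%. A gene that did not pass may therefore still have differed. Replicates are separate homogenates. No pair of libraries agreed within sampling noise (chi-square per degree of freedom 4.48 or more). Libraries of the same number deviated from their group means together in KA and AAV (correlation over 9001 genes 0.348 to 0.551 in the IP and 0.352 to 0.550 in the input) and, being 1 homogenate, in IP and input (0.155 to 0.752). Named were all 10 members, up to 3 genes higher and 3 lower by smallest p in each pathway list among those called in KA against AAV in the IP, and the 5 genes most like the member of smallest p. The members and lists were chosen with earlier results of these data known.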

Additional observations from a re-analysis of the deposited data

Results flagged for a closer look

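The KA difference of 5 members in the IP differed from that in the input by a test of the difference itself. That test was fitted without the homogenate as a block. For Slc7a11 the difference of the differences was -1.83 on the log2 scale against AAV and -1.66 against PBS. For Gpx1 it was 1.06 against AAV and 1.37 against PBS. Against PBS it was -1.29 for Gstm1, 0.75 for Txnrd1 and 0.63 for Srxn1. By the same test against PBS most astrocyte markers were lower too, at a median of -1.29, and the oligodendrocyte markers were higher. The part of these marker shifts in the members' differences was not tested. Both baselines share the KA libraries, and the PBS libraries were sequenced in a run of their own. With 1 homogenate left out at a time, Slc7a11 kept its call against both baselines, and Gpx1 kept it against PBS. Against AAV, Gpx1 lost it without KA 2, AAV 1 or AAV 2. Against PBS, Gstm1 lost its call without any homogenate but PBS 3. Txnrd1 lost it without KA 1, KA 2 or PBS 1, and Srxn1 without KA 1 or KA 2. With the homogenate as a block, Gsr, Txnrd1, Gstm1, Nqo1 and Gclc passed too against AAV (adjusted p = 0.000488, 0.00609, 0.000509, 0.0188 and 0.0135). In that fit 3286 of 9180 genes passed. Against PBS, Gsr passed too with the block (adjusted p = 0.0011), where 3479 of 9305 genes did.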

How the results depend on the processing

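With 3 libraries a group, an exact permutation test of a single gene cannot go below p = 0.1, and calls near the threshold turned with single libraries. In KA against AAV in the IP, 3 to 6 members passed when 1 library was left out, in PBS against AAV 0 to 3 (IP) and 0 to 5 (input), in KA against AAV in the input 1 to 4, and in the IP minus input differences 1 to 3 against AAV and 2 to 5 against PBS. In KA against AAV in the input, 2 passed with the run as a covariate and 5 within run 1, which was chosen after the data were seen. All 18 libraries in 1 fit gave 1 for KA against PBS in the input and 3 for its IP minus input difference. The replicate block, for paired libraries, gave 8 for IP against input in AAV and 7 for the IP minus input difference of KA against AAV, changed the calls given above, and moved no other count by over 1.5 times. KA and AAV libraries of the same number came from different mice and shared only a run, with libraries 1 and 2 both in run 1. KA and PBS, or PBS and AAV, shared only numbers. The block took the calls of Gclc and Gstm1 in KA against PBS in the IP (adjusted p = 0.0648 and 0.106). The other counts of members stayed within 1.5 times under these settings. Of the pathway list genes in KA against AAV in the IP, 28 passed (10 higher and 18 lower). It was 10 to 41 (5 to 18 higher and 4 to 23 lower) with 1 library left out, 45 (21 higher) with the block, 54 (26 and 28) with the run as a covariate and 62 (32 and 30) within run 1. DESeq2 gave 16 higher, no filter 20 and all 18 libraries 17. The number of all genes passing moved with the same choices. Without the filter it was 3933 in place of 1960 in KA against AAV in the IP, 7028 in place of 3647 in KA against PBS in the IP, 1770 in place of 485 in KA against AAV in the input, 4929 in place of 3006 in KA against PBS in the input, and 6322, 8789 and 5753 in place of 3959, 5853 and 3477 in IP against input in AAV, PBS and KA. It was 261, 234 and 41 in PBS against AAV in the IP, the input and their difference, where it had been 0. For KA against AAV, the block gave 3356 (IP) and 1101 (input) and run 1 alone 4586 (IP). The run as a covariate gave 3914 (IP) and 1731 (input), DESeq2 878 (input), and all 18 libraries 2968 (IP). The block gave 5336 for IP against input in KA, and all 18 libraries 1023 for KA against PBS in the input. With all 18 libraries it was 31 in PBS against AAV in the IP, and with the block 1 in the input and 1 in the difference. With 1 library left out it was 840 to 3302 (IP), 136 to 2620 (input) and 510 to 2024 (their difference) in KA against AAV, 2422 to 3663, 1721 to 4799 and 1316 to 2114 in KA against PBS, 0 to 1121, 0 to 4040 and 0 to 34 in PBS against AAV, and 2257 to 4068 in IP against input in KA. The causes were not tested.

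Signs turned for 18 log2 fold changes, and neither their main values nor the values of turned sign were past the threshold. The ranges below also hold values of the main sign. Of these, 0.45 for Gpx4 in PBS against AAV without AAV input library 3 passed (adjusted p = 0.0291). Without the filter they were, for Gclm, 0.045 in KA against AAV in the IP and 0.091 in the IP minus input difference against PBS, for Gstm1 -0.0091 in KA against PBS in the input, for Txnrd1 -0.027 in IP against input in PBS, for Srxn1 0.069 in IP against input in KA, and for Gpx4 0.057 in the IP minus input difference against AAV. Gclm in KA against PBS in the IP was -0.018 by voom and -0.016 with the replicate block, and Gclc in KA against AAV in the input was 0.0066 in the fit of all 18 libraries. Leaving out 1 library gave, in the IP, for Gclm -0.25 to 0.19 (KA against AAV), -0.12 to 0.24 (KA against PBS) and -0.29 to 0.15 (PBS against AAV), and in PBS against AAV -0.21 to 0.65 for Gstm1 and -0.36 to 0.053 for Gpx4. In the input it gave, for KA against AAV, -0.044 to 0.024 for Gclc, -0.10 to 0.087 for Slc7a11 and -0.029 to 0.36 for Gsr, for KA against PBS -0.023 to 0.088 for Gstm1, and for PBS against AAV -0.10 to 0.44 for Nqo1 and -0.013 to 0.45 for Gpx4. In IP against input it gave -0.13 to 0.084 for Gpx1 and -0.023 to 0.16 for Txnrd1 in PBS, and -0.016 to 0.21 for Gclc and -0.087 to 0.039 for Srxn1 in KA. In the IP minus input differences it gave -0.19 to 0.00042 for Gpx4 in KA against AAV and -0.41 to 0.12 for Gstm1 in PBS against AAV.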
